A study of Mus musculus with 22 samples.

Results

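Scavenger receptors are membrane proteins that bind modified lipoproteins, damaged proteins, microbes or dying cells and carry them into the cell. The results below concern 9 mouse genes of this kind, Cd163, Mrc1, Stab1, Marco, Msr1, Scarf1, Scarb1, Colec12 and Cd93, out of 52636 genes counted. The genes were chosen by name, with earlier results of these data known, and each symbol was matched to its Ensembl identifier. Counts of them set beside the share over all genes are therefore a description. Macrophages that live in connective tissue along vessels carry several of these receptors at once, and Cd163, Mrc1 and Stab1 are among the genes by which such macrophages are usually told from other tissue macrophages. Cd163 takes up haemoglobin bound to haptoglobin, Mrc1 (CD206) takes up mannose-bearing glycoproteins and collagen, and Stab1 clears modified lipoproteins and matrix proteins and sorts them to the lysosome. Marco and Msr1 are class A receptors with a collagen-like stalk that bind bacteria, particles and modified lipoproteins. Scarf1 takes part in the clearance of dying cells, and Scarb1 is the receptor for high-density lipoprotein, through which steroid-producing cells take up cholesterol. Colec12 is a membrane collectin also made by stromal and vascular cells, and Cd93 is a lectin-like receptor of endothelial and myeloid cells.

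RNA was sequenced in bulk from 22 libraries of mouse kidney or renal capsule, the fibrous sheath around the kidney, in 6 groups, all labelled as untreated. There were 3 libraries of young and 3 of aged capsule tissue. The other groups held 4 libraries each, namely macrophages from the renal capsule, macrophages from the kidney, young RCAMs and aged RCAMs. Genotype, strain, sex and age in figures are not in the labels, and the mice behind the capsule and kidney macrophages are not called young or aged. RCAM is not spelled out, and the labels enter these libraries as whole tissue although the design text speaks of macrophage sorting from dissected capsules. A kit for 100 ng of RNA and a low-input kit for 2 ng are described without naming the samples of each. Nothing states that replicates came from separate animals, so p-values measure only how these samples spread, and that spread may be technical.

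Total counts ran from 20.6 to 43.2 M (1e6) in capsule tissue and from 31.8 to 54.4 M in the other 4 groups. Levels below are in CPM, the counts of a gene per 1e6 counts of its library over all genes. The summed level of 15 macrophage genes lay between 39554 and 44170 CPM in RCAM libraries, between 38110 and 41600.0 CPM in capsule macrophages and between 32284 and 35999 CPM in kidney macrophages, against 2234 to 11870.0 CPM in capsule tissue, where Itgam was listed at 0. By these markers the RCAM libraries stood with the sorted macrophages and not with whole tissue. Fibroblast genes (10 genes, none at 0 in any group) summed to 8677 to 14245 CPM in capsule tissue and to 579 to 2818 CPM over the RCAM libraries. Their sum was 661 to 978 CPM in capsule and 12.6 to 18.0 CPM in kidney macrophages. Adrenal cortex genes stood at 268 CPM in replicate 2 of young tissue and 6743 CPM in replicate 2 of aged tissue, against 53.2 to 69.7 CPM in the other 4 tissue libraries, and results that rest on these 2 libraries are given with and without them.

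Cd163, Mrc1, Stab1 and Marco lie on separate chromosomes (GRCm38, GENCODE M21 annotation). All 4 are protein-coding. Cd163 (ENSMUSG00000008845) spans chr6:124304656-124330527 on the plus strand, and Mrc1 (ENSMUSG00000026712) spans chr2:14229392-14332057 on the plus strand with the microRNA gene Mir511 inside it. Stab1 (ENSMUSG00000042286) spans chr14:31139013-31168641 and Marco (ENSMUSG00000026390) chr1:120474538-120505024, both on the minus strand. Exons of Stab1 overlap exons of Nt5dc2 on the other strand. Whether the counting used strand is not given in the sources used here, so reads of the overlap cannot be told apart, and Nt5dc2 was counted at 7.12 to 56.1 CPM over the 22 libraries. The 250 bases before each start (RefSeq, GRCm38.p6) are shown because these genes moved together or apart in the comparisons below. Windows are shown for 4 of the 9 genes, and none is shown for Msr1, Scarf1, Scarb1, Colec12 or Cd93. Capitals mark 3 motifs of factors known to act in macrophages, searched on both strands: GAGGAA, the core bound by PU.1, TGCTGA, part of the site of MAF proteins, and TGTTCT, part of the glucocorticoid receptor site.

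Cd163 (chr6:124304401-124304650, plus strand): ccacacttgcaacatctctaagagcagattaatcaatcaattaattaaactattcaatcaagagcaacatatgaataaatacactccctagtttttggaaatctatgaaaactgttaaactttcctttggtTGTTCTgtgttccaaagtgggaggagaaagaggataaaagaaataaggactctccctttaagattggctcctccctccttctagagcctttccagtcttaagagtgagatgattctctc
Mrc1 (chr2:14229164-14229413, plus strand): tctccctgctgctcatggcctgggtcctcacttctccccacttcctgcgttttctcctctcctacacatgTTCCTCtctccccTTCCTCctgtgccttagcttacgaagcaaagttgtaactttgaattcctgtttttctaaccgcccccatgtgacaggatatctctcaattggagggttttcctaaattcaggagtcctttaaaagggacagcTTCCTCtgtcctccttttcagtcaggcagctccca
Stab1 (chr14:31168642-31168891, minus strand): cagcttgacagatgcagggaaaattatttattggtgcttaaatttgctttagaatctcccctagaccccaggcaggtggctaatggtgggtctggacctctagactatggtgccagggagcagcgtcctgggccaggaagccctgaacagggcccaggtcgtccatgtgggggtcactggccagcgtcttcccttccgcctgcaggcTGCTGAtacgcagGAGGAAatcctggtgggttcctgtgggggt
Marco (chr1:120505025-120505274, minus strand): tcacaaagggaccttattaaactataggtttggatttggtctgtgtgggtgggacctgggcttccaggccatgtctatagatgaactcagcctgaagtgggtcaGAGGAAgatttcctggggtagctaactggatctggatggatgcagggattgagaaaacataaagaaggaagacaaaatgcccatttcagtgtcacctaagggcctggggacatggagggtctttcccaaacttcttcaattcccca

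The Mrc1 window held GAGGAA 3 times, the Stab1 and Marco windows held it 1 time each, and the Cd163 window did not hold it. Of the 4, TGCTGA was found in the Stab1 window only, and TGTTCT in the Cd163 window only. Of 32851 promoter windows of the same length, 23.3% held GAGGAA, 16.1% held TGCTGA and 16.1% held TGTTCT. The windows differed in base composition, from 36.8% G or C in Cd163 to 57.2% in Stab1. A match is a description of letters and not a site in use.

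Macrophages of the capsule were set against macrophages of the kidney to ask how the receptor makeup differs between these sites. Capsule macrophages had far more Cd163 and Colec12, and several-fold more Mrc1, Stab1, Marco and Scarf1. Msr1 was moderately higher, Scarb1 slightly lower, and Cd93 did not differ by the test. Of the 9 genes, 7 were higher and 1 lower (edgeR adjusted p under 0.05), where 27.3% of all 15701 genes tested were higher, 28.2% lower and 55.4% changed in either direction. The median log2 fold change was 2.13 over the 9 genes and -0.03 over all genes. In this comparison the scaling of the test moved plain CPM differences by 0.21 on the log2 scale, so log2 fold changes lie above the ratio of the printed CPM.

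Cd163 differed between the sites by more than the others of the 9 except Colec12. It stood at 1199.9, 1593, 1323 and 1298 CPM in capsule macrophages and at 29.6, 33.7, 30.0 and 25.3 CPM in kidney macrophages. The lowest capsule library was far above the highest kidney library. The log2 fold change was 5.72 ± 0.13 (SE, edgeR adjusted p = 7.01e-10), or 52.8-fold.

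Per kilobase of exon, Mrc1 had the highest level of the 9 in both kinds of macrophage. It was counted at 1808, 2208, 1816 and 2500.2 CPM in capsule macrophages and at 473, 452, 398 and 372 CPM in kidney macrophages. All capsule libraries exceeded all kidney libraries, by 2.51 ± 0.13 on the log2 scale (edgeR adjusted p = 1.17e-07). Kidney macrophages thus had Mrc1 at a clear level while Cd163 was low in the same libraries. Stab1 had values of 1383, 1529, 1378 and 1884 CPM in the capsule and 435, 421, 429.5 and 352 CPM in the kidney. Here too the groups were well apart, by 2.13 ± 0.12 on the log2 scale (edgeR adjusted p = 1.88e-07). Nt5dc2, which overlaps Stab1, was at 41.5 to 50.7 CPM in capsule and 25.3 to 32.3 CPM in kidney macrophages.

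Colec12 (ENSMUSG00000036103, plus strand, chr18:9707595-9882644) was close to absent from the kidney macrophage libraries. It had 188, 278, 159 and 228 CPM in capsule macrophages and 1.75, 2.32, 1.29 and 1.74 CPM in kidney macrophages. Every capsule library lay far above every kidney library, and the log2 fold change was 7.10 ± 0.24 (edgeR adjusted p = 8.68e-09). Fibroblast genes moved the same way between these groups, all 10 of them higher in capsule macrophages, with a median log2 fold change of 6.28. Colec12 reached 179 to 421 CPM per 1000 CPM of summed fibroblast genes in capsule macrophages, 71.4 to 138 CPM in kidney macrophages and 9.88 to 12.2 CPM in young and 18.2 to 19.3 CPM in aged capsule tissue. The part of fibroblast RNA in the difference was not tested beyond this ratio.

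The class A and class F receptors were higher in capsule macrophages as well. Scarf1 (ENSMUSG00000038188) lies at chr11:75513540-75526582 on the plus strand and Msr1 (ENSMUSG00000025044) at chr8:39581685-39642673 on the minus strand. Scarf1 had 26.9, 27.7, 21.6 and 27.7 CPM in capsule macrophages and 6.06, 7.91, 8.41 and 3.83 CPM in kidney macrophages, without overlap (log2 fold change 2.21 ± 0.22, edgeR adjusted p = 1.73e-05). Msr1 had 155, 148, 115 and 131 CPM against 104, 95.9, 89.9 and 97.0 CPM. The ranges did not overlap, but the gap was small beside that of Cd163 (log2 fold change 0.72 ± 0.10, edgeR adjusted p = 0.000182). Marco had few counts in both, with 3.82, 1.41, 1.33 and 2.09 CPM in capsule macrophages, which is 57 to 204 counts a library, and 0.569, 0.742, 0.440 and 0.541 CPM in kidney macrophages, or 14 to 32 counts. The groups did not overlap (log2 fold change 2.12 ± 0.43, edgeR adjusted p = 0.0018), and the call was lost with all 6 groups in one fit (adjusted p = 0.0671).

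Scarb1 (ENSMUSG00000037936, chr5:125277087-125341094) and Cd93 (ENSMUSG00000027435, chr2:148436640-148443563), both on the minus strand, did not follow the others. Scarb1 had 115, 115, 121 and 90.9 CPM in capsule macrophages and 146, 159.6, 154 and 162 CPM in kidney macrophages. The kidney libraries were all higher, by a small margin (log2 fold change -0.28 ± 0.10, edgeR adjusted p = 0.0294). Without capsule replicate 4, kidney replicate 2 or kidney replicate 4 the adjusted p was 0.0674, 0.0686 and 0.0623, and with all 6 groups in one fit it was 0.49. Proximal tubule genes, at 1404 to 2574 CPM in kidney and 65.3 to 201 CPM in capsule macrophages, moved the same way, and their part was not tested. Cd93 had 65.9, 67.2, 67.6 and 60.2 CPM in capsule macrophages and 78.9, 81.2, 72.0 and 76.5 CPM in kidney macrophages. In plain CPM the kidney libraries were all higher, while after scaling the log2 fold change was -0.03 ± 0.08 (95% confidence interval -0.21 to 0.14, edgeR adjusted p = 0.74).

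**Figure D1:**
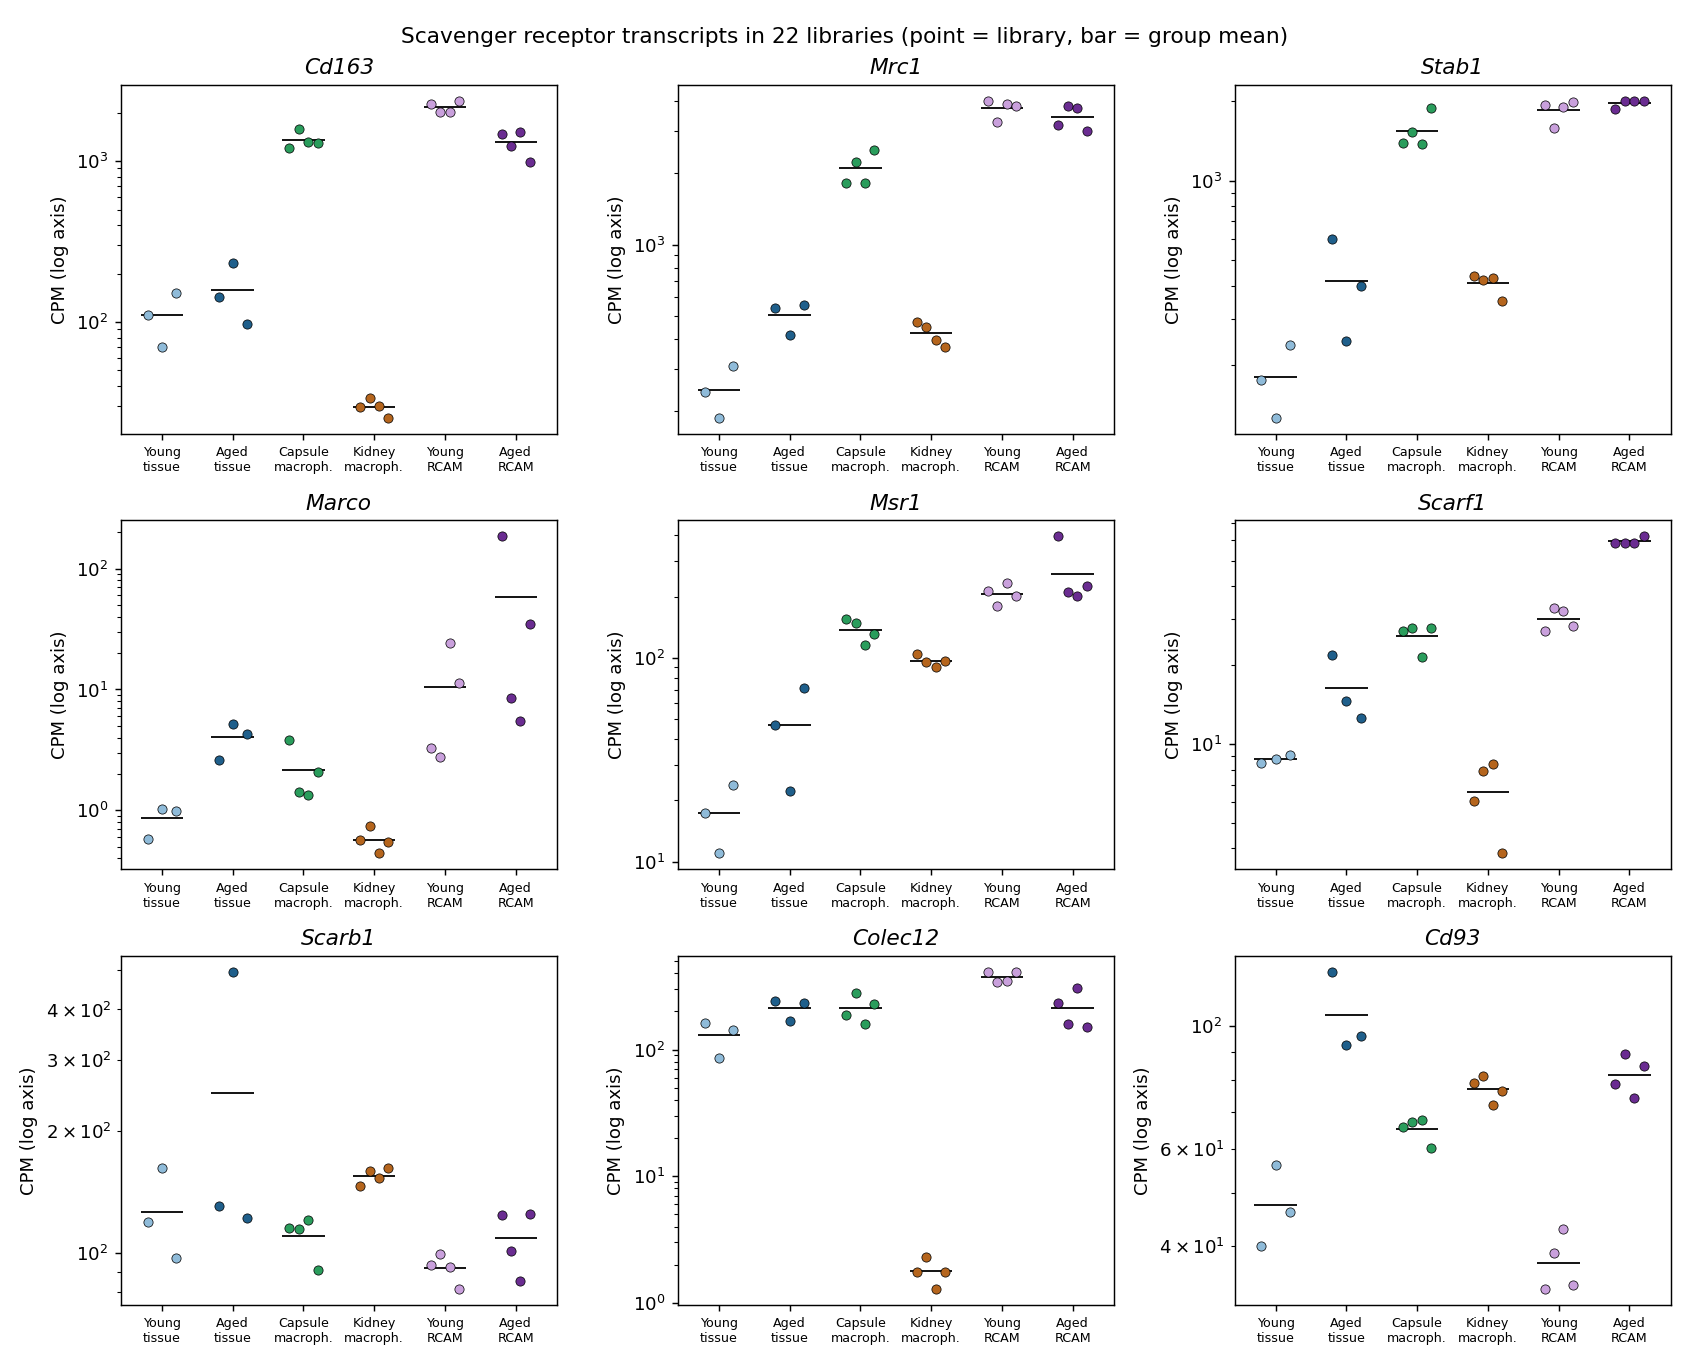
Level of each of the 9 receptor genes in CPM (vertical log axis) in 22 libraries of 6 groups (points are libraries, bars are group means). Cd163 and Colec12 are lowest in kidney macrophages (means of 29.7 and 1.78 CPM), Scarf1 highest in aged RCAM libraries (mean 59.4 CPM), and 1 aged tissue library stands apart for Scarb1 (496 CPM).

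Genes around the receptors, taken from lists of related genes, were also split between the sites. Beside the counts of all 6 lists, 27.3% of all genes tested were higher, 28.2% lower and 55.4% either. Of 10 genes of haemoglobin and haem uptake, 6 were higher in capsule macrophages and 1 lower, with a median log2 fold change of 1.20. Slc40a1, the iron exporter ferroportin, had 393 ± 31.8 CPM in capsule and 59.1 ± 2.21 CPM in kidney macrophages (SD, n = 4). The difference was 2.94 ± 0.08 on the log2 scale (edgeR adjusted p = 2.38e-09). Hmox1, which opens the haem ring, had 279.7 ± 43.5 against 92.5 ± 6.04 CPM (1.81 ± 0.11, edgeR adjusted p = 4.9e-07), and Blvrb, a biliverdin reductase, was higher by 2.80 ± 0.09 (edgeR adjusted p = 6.16e-09). These genes act downstream of the uptake that Cd163 serves. Of 24 other scavenger receptors, 20 could be tested, 12 were higher and 5 lower, with a median of 0.66. Cxcl16, which is also a membrane chemokine, and the glucan receptor Clec7a went the other way, with 193 ± 37.1 against 1066 ± 37.2 CPM and 144 ± 16.1 against 389 ± 34.7 CPM (log2 fold changes of -2.25 ± 0.14 and -1.22 ± 0.10, edgeR adjusted p = 4.1e-07 and 2.47e-06). Scara5, a ferritin receptor, was at 34.5 ± 6.88 CPM in capsule macrophages and 0.0269 ± 0.0415 CPM in kidney macrophages, beside the fibroblast difference given above.

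In the mannose receptor family and related lectins, 4 of 6 genes were higher and none lower (median 1.76). Among the higher was Mrc2, a collagen receptor, at 5.72 ± 2.16 against 0.998 ± 0.353 CPM. These 6 genes summed to 78.9 to 121 CPM in capsule and 32.2 to 39.9 CPM in kidney macrophages, against 487 to 751 CPM in young tissue. Fibroblast genes moved the same way between the sites, and their part was not tested. Of 10 endocytic adaptors and sheddases, 7 were higher and 2 lower (median 0.76). Dab2, a clathrin adaptor of lipoprotein receptors, had 3701 ± 406 against 1005 ± 85.0 CPM, a log2 fold change of 2.09 ± 0.09. Of 12 regulators linked to scavenger receptors, 7 were higher and 3 lower (median 0.47). The transcription factor Maf had 169 ± 10.8 against 58.1 ± 4.99 CPM (1.76 ± 0.09, edgeR adjusted p = 1.05e-07), while the nuclear receptor Pparg was lower in capsule macrophages, 20.8 ± 7.83 against 121 ± 2.92 CPM (-2.33 ± 0.23). Of 10 genes of lipoprotein cholesterol handling, 5 were higher and 2 lower (median 0.22). Pdzk1, a scaffold that binds Scarb1 and is abundant in tubules, had 2.15 ± 1.08 against 91.1 ± 29.5 CPM, beside the proximal tubule difference given above.

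The age comparison among sorted cells set aged against young RCAM libraries. Scarf1 and Cd93 were higher in aged libraries, by 1.94-fold and 2.16-fold, while Cd163 and Colec12 were lower. Mrc1, Stab1, Msr1, Scarb1 and Marco did not pass the test. Thus 2 of the 9 were higher and 2 lower, where 3.43% of all 15182 genes tested were higher, 1.38% lower and 4.8% either. The median log2 fold change over the 9 genes was 0.22, against -0.01 over all genes. None of the 15 macrophage genes passed in either direction (median 0.03, with 0 called by edgeR).

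Cd93 had 33.5, 38.9, 42.9 and 34.0 CPM in young and 78.6, 89.2, 74.3 and 84.8 CPM in aged RCAM libraries. Each aged library was well above each young one, with a difference of 1.11 ± 0.09 on the log2 scale (edgeR adjusted p = 0.000489). Endothelial genes, among which Cd93 is often counted, summed to 17.6 to 29.3 CPM in young and 33.9 to 93.0 CPM in aged RCAM libraries. Of them, 2 of 10 tested were higher. B cell genes summed to 11.7 to 22.3 CPM in young and 41.7 to 58.0 CPM in aged RCAM libraries, with 3 of 4 tested higher. The part of either kind of RNA in the Cd93 difference was not tested. In capsule tissue the endothelial sum was 758.5 to 843.7 CPM in young and 873 to 1561 CPM in aged libraries. Cd93 was at 40.1 to 56.1 CPM in young and 92.5 to 126 CPM in aged tissue. Scarf1 had 27.0, 33.0, 32.3 and 28.3 CPM in young and 58.5, 58.4, 58.6 and 62.1 CPM in aged libraries. The aged libraries were close to each other and all above the young ones (log2 fold change 0.96 ± 0.08, edgeR adjusted p = 0.000489). With each of the 8 libraries left out in turn, the log2 fold change stayed between 0.93 and 1.0 for Scarf1 and between 1.06 and 1.17 for Cd93, and both calls held.

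Cd163 was lower with age in these libraries. Young RCAM libraries had 2266, 2013, 2016 and 2369 CPM and aged ones 1482, 1237, 1513 and 990.1 CPM. The ranges were apart, and the log2 fold change was -0.76 ± 0.13 (95% confidence interval -1.06 to -0.46, edgeR adjusted p = 0.0128). With all 6 groups in one fit the same log2 fold change of -0.76 had an adjusted p of 0.0783. Colec12 had 409, 341, 345 and 411 CPM in young and 233, 160.2, 305 and 151 CPM in aged libraries, again without overlap (log2 fold change -0.85 ± 0.21, edgeR adjusted p = 0.0455). This call rested on all libraries: without any of 7 of the 8 it was lost, with adjusted p between 0.0708 and 0.115, the exception being aged replicate 3. Fibroblast genes went the other way, 6 of 10 higher and none lower in aged libraries, with sums of 579 to 792 CPM in young and 983 to 2818 CPM in aged libraries. Colec12 per 1000 CPM of fibroblast genes was 436 to 597 CPM in young and 53.6 to 171 CPM in aged RCAM libraries.

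Mrc1 and Stab1, which were high beside Cd163 in the same libraries, did not pass the age test. Mrc1 had 4004, 3257, 3882 and 3791 CPM in young and 3169, 3818, 3736 and 2999.9 CPM in aged libraries. The groups overlapped, and the log2 fold change was -0.15 ± 0.11 (95% confidence interval -0.39 to 0.10, edgeR adjusted p = 0.574). Stab1 had 1924, 1576, 1893 and 1989.7 CPM in young and 1870.4, 1998, 2004 and 1992 CPM in aged libraries, also with overlap (0.07 ± 0.09, interval -0.12 to 0.26, edgeR adjusted p = 0.783). Scarb1 ranged from 81.6 to 99.7 CPM in young and from 85.6 to 125 CPM in aged libraries (0.22 ± 0.12, edgeR adjusted p = 0.4).

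Marco varied more between RCAM libraries of one age than any other of the 9 genes. Young RCAM libraries had 3.31, 2.77, 24.4 and 11.3 CPM, and aged ones had 185, 8.46, 5.49 and 34.7 CPM. In counts this was 138 to 1250 per young library and 247 to 8668 per aged library. The groups overlapped, and the log2 fold change of 2.47 ± 1.08 had an interval from 0.07 to 4.86 (edgeR adjusted p = 0.271). Without aged replicate 1 it was 0.63. Msr1, its class A relative, had 213, 180.4, 233 and 203 CPM in young and 396, 210.2, 200.5 and 226 CPM in aged libraries. Aged replicate 1 was again the highest, and the other aged libraries lay within the young range (0.29 ± 0.19, edgeR adjusted p = 0.513, and 0.02 without aged replicate 1). Saa3, an acute-phase protein made by activated macrophages, was among the 3 genes most like Marco over the 16 sorted libraries (Pearson's r of log2 CPM 0.890). It had 7.28, 5.86, 14.9 and 8.77 CPM in young and 173, 34.5, 21.9 and 128 CPM in aged RCAM libraries. Genes of peritoneal macrophages summed to 171, 188, 302 and 218 CPM in young and 255, 193, 113 and 474 CPM in aged libraries. Replicates 3 and 4 were the highest young libraries and replicates 1 and 4 the highest aged ones for both this sum and Marco. In capsule macrophages the sum was 157 to 617 CPM, with Marco at only 1.33 to 3.82 CPM. The part of such cells in the Marco spread was not tested.

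**Figure D2:**
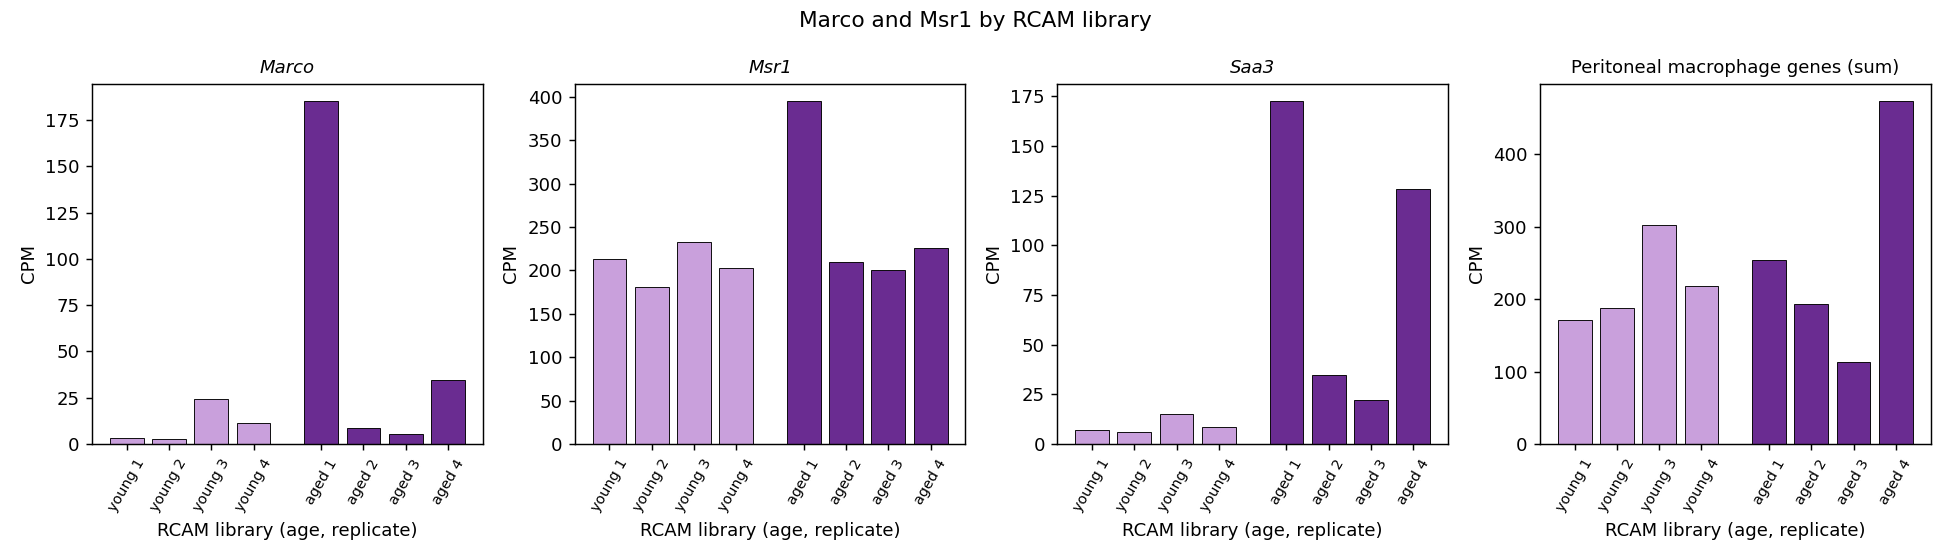
Bars give CPM of Marco, Msr1, Saa3 and the summed peritoneal macrophage genes in each young and aged RCAM library. Aged replicate 1 is highest for Marco (185 CPM), Msr1 (396 CPM) and Saa3 (173 CPM), and aged replicate 4 for the peritoneal genes (474 CPM).

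The related genes that passed in RCAM aging were all higher in aged libraries. Over all genes tested, 3.43% were higher, 1.38% lower and 4.8% either. Among 21 other scavenger receptors tested, 5 were higher and none lower (median 0.21, all genes -0.01). Scara5 went from 23.4 ± 5.77 to 85.0 ± 45.2 CPM (log2 fold change 1.84 ± 0.34, edgeR adjusted p = 0.0152) and Scara3 from 6.81 ± 1.64 to 30.1 ± 16.1 CPM (2.12 ± 0.37, edgeR adjusted p = 0.0111). Cxcl16 rose from 154 ± 26.6 to 239 ± 16.9 CPM (0.61 ± 0.12, edgeR adjusted p = 0.0173), which left it far under the 1066 CPM of kidney macrophages. In the mannose receptor family 2 of 6 were higher, Cd248 and Mrc2 (2.18 ± 0.39 and 1.17 ± 0.27). Cd248 is known as a stromal gene, and the fibroblast sums given above moved the same way as it, Scara3 and Scara5, a part that was not tested. Hp, the haptoglobin that Cd163 binds with haemoglobin, had 11.7 ± 2.94 CPM in young and 31.5 ± 10.9 CPM in aged RCAM libraries (1.40 ± 0.26, edgeR adjusted p = 0.0154), and was 1 of 2 higher among 9 haem uptake genes tested. Among 10 lipoprotein genes 1 was higher, Nr1h3, the LXR-alpha receptor, at 12.6 ± 1.53 and 38.5 ± 22.7 CPM (1.58 ± 0.32, edgeR adjusted p = 0.0231). Endocytic adaptors gave 1 of 10 higher, Gulp1, and regulators 1 of 12, Il10ra. None of these 4 lists had a lower member.

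Aged and young libraries were also compared in whole capsule tissue, without sorting. All 9 receptors had a positive log2 fold change in aged tissue, and none passed the test over all genes (edgeR), where 0.153% of 16350 genes were higher, 0.0856% lower and 0.239% either. An unadjusted p under 0.05 was found for 7 of the 9, where 22.5% of all genes had one. DESeq2 called 5 of the 9 higher, where it called 2.97% of 25123 genes higher, and limma-voom called none. The median over the 9 genes was 0.93, against 0.03 over all genes. The 15 macrophage genes had a median of 0.90 over the 14 tested, none of them called by edgeR, and their sum was 2234 to 4555 CPM in young and 4604 to 11870.0 CPM in aged tissue. In bulk tissue, more macrophages and more RNA of a gene per macrophage cannot be told apart. Cd93 and Scarb1 were not higher in RCAM libraries than in tissue, as given below. Other RNA of the tissue moved too. Proximal tubule genes summed to 6470 to 25398 CPM in young and 1277 to 6235 CPM in aged tissue (median log2 fold change -2.27). Erythroid genes had a median of -1.58, and none of either list was called by edgeR. Their part in the CPM of other genes was not tested.

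Cd93 had 40.1, 56.1 and 46.1 CPM in young and 126, 92.5 and 95.9 CPM in aged tissue. The aged libraries were all higher, with a log2 fold change of 1.01 ± 0.20 and an adjusted p of 0.0717 by edgeR. Without replicate 2 of both ages, the libraries with adrenal RNA, it was 1.25 with an adjusted p of 0.0389. The endothelial sums given above were also higher in aged tissue, with a median log2 fold change of 0.36 and none of 12 genes called. Their part in the Cd93 difference was not tested. Marco had 0.583, 1.03 and 0.992 CPM in young and 2.61, 5.19 and 4.32 CPM in aged tissue, which is 12 to 22 counts a young library and 113 to 194 an aged one. The groups were apart (2.10 ± 0.45, edgeR adjusted p = 0.0826, DESeq2 adjusted p = 0.00104). Mrc1 had 240.2, 187 and 309.8 CPM in young and 544, 419 and 559 CPM in aged tissue, without overlap (0.93 ± 0.25, edgeR adjusted p = 0.106, DESeq2 adjusted p = 0.00854).

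Stab1 had 176, 126 and 239 CPM in young and 602, 247 and 398 CPM in aged tissue, and differed by 1.07 ± 0.35 on the log2 scale (edgeR adjusted p = 0.133). Msr1 had 17.4, 11.0 and 23.8 against 47.1, 22.3 and 71.2 CPM, with overlap (1.33 ± 0.44, edgeR adjusted p = 0.136). Replicate 2 was the lowest of its age for both genes, as it was for the macrophage sum. Scarf1 had 8.45, 8.79 and 9.06 CPM in young and 21.9, 14.6 and 12.6 CPM in aged tissue, and all aged values were higher (0.77 ± 0.23, edgeR adjusted p = 0.117). Colec12 had 161, 85.7 and 143 CPM against 239.9, 169 and 232 CPM (0.61 ± 0.26, edgeR adjusted p = 0.22). Per 1000 CPM of fibroblast genes it was 9.88 to 12.2 CPM in young and 18.2 to 19.3 CPM in aged tissue.

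For Cd163 and Scarb1 in tissue, replicate 2 of each age, the adrenal-bearing library, stood at an extreme. Cd163 had 110.1, 70.2 and 152 CPM in young and 142, 234 and 96.9 CPM in aged tissue, with overlap (0.40 ± 0.37, edgeR adjusted p = 0.574). Replicate 2 was the lowest young and the highest aged value, and without both the log2 fold change was -0.25. Scarb1 had 119.5, 162 and 97.2 CPM in young and 131, 496 and 122 CPM in aged tissue. Replicate 2 was the highest of each age, and without the aged one the log2 fold change turned from 0.87 ± 0.55 to -0.13. In that aged library the adrenal cortex genes summed to 6743 CPM, and Star, which carries cholesterol into mitochondria for steroid synthesis, stood at 1757 CPM. Adrenal cortex genes were at 10.8 to 28.2 CPM in capsule and kidney macrophages and 9.55 to 15.1 CPM in RCAM libraries, with 5 or 6 of 10 at 0. In tissue aging, no tested member of the lists of mannose receptor family, haem uptake, lipoprotein, endocytic and regulator genes was called by edgeR.

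**Figure D3:**
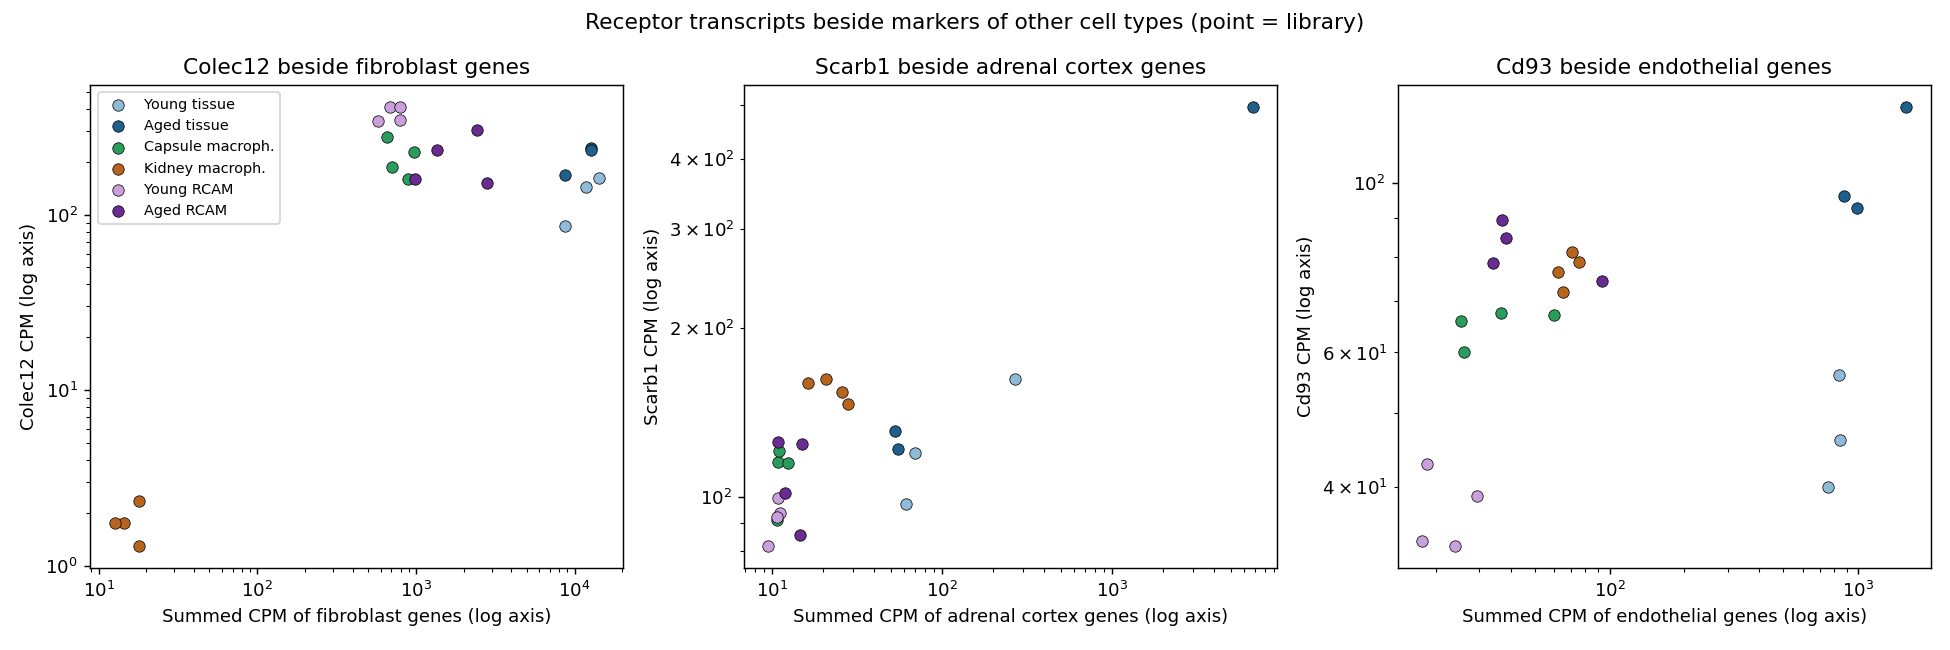
Each point is a library, with receptor CPM (log axis) against the summed CPM of markers of another cell type (log axis) for Colec12 and fibroblast, Scarb1 and adrenal cortex, and Cd93 and endothelial genes. The aged tissue library at 6743 CPM of adrenal genes has the highest Scarb1 (496 CPM), and RCAM libraries reach the Colec12 level of tissue at far lower fibroblast sums.

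Whether age acted differently in RCAM libraries and in tissue was tested as the difference of the 2 age effects. It was negative and past the threshold for Mrc1 and Colec12, 2 of the 9, where 1.93% of 18856 genes were lower, 3.12% higher and 5.05% either. For Mrc1 the difference was -1.04 ± 0.25 (edgeR adjusted p = 0.0342), the age effect being 0.93 in tissue and -0.15 in RCAM libraries. For Colec12 it was -1.42 ± 0.35 (edgeR adjusted p = 0.0372), from 0.61 and -0.85. Neither call held with every library left out in turn. Of 14 libraries left out in turn, the Mrc1 call was lost without 7 (adjusted p 0.0581 to 0.073) and the Colec12 call without 10 (0.0502 to 0.0748). Cd163 (-1.11 ± 0.40, edgeR adjusted p = 0.117) and Stab1 (-0.97 ± 0.33, edgeR adjusted p = 0.103) had differences of similar size that did not pass. Without the adrenal-bearing tissue libraries Stab1 passed (-1.14, edgeR adjusted p = 0.0259). The median of the 15 macrophage genes in this test was -0.86, with 1 of 15 lower. An unlike age effect per macrophage and a change in the macrophage share of tissue cannot be told apart in this test. For Cd93 the difference was 0.14 ± 0.20 (95% confidence interval -0.29 to 0.56).

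**Figure D4:**
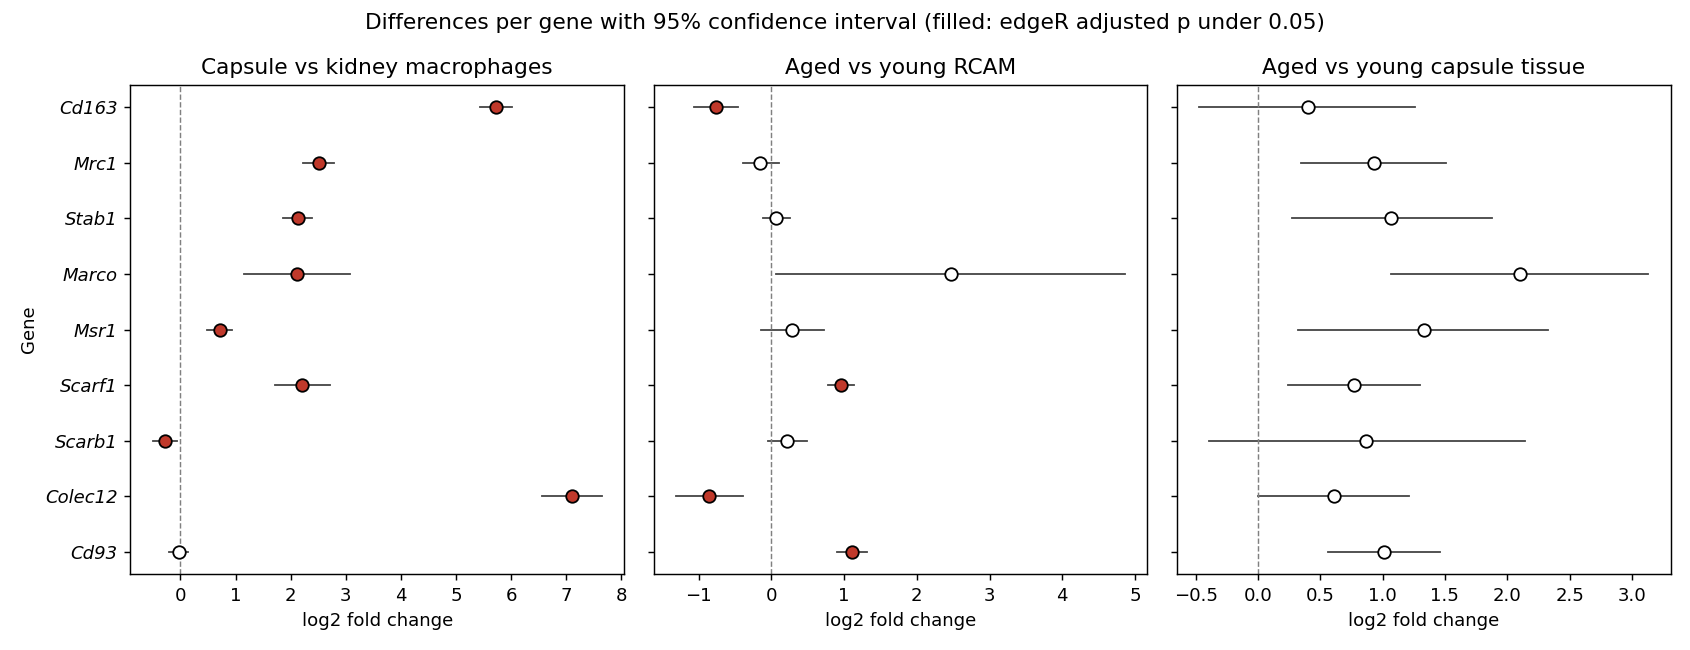
Log2 fold change of each of the 9 genes with its 95% confidence interval (horizontal axis) in 3 comparisons, filled where the edgeR adjusted p was under 0.05. In the site comparison 8 genes are filled and in RCAM aging 4, and in tissue aging none, though all 9 points lie above 0.

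Setting RCAM libraries against tissue of the same age shows which receptors were enriched with the macrophages. In young mice 7 of the 9 were higher in RCAM libraries and none lower, where 35.2% of 17491 genes were higher, 40.6% lower and 75.9% either. Cd163 led at a log2 fold change of 4.55 ± 0.30, SE (edgeR adjusted p = 4.09e-06), followed by Mrc1 (4.19 ± 0.23), Msr1 (3.83 ± 0.27), Marco (3.81 ± 0.86) and Stab1 (3.62 ± 0.25). The 15 macrophage genes were all higher, with a median of 3.82. Scarf1 (2.04 ± 0.13) and Colec12 (1.80 ± 0.22) were higher by less. Cd93 (-0.09 ± 0.14, 95% confidence interval -0.42 to 0.24) and Scarb1 (-0.20 ± 0.17, interval -0.59 to 0.20) did not differ by the test. In aged mice 6 were higher and none lower (32.2% and 38.5% of 17595 genes, 70.7% in either direction), namely Marco (4.15 ± 1.26), Cd163 (3.36 ± 0.34), Mrc1 (3.08 ± 0.18), Msr1 (2.78 ± 0.42), Stab1 (2.58 ± 0.27) and Scarf1 (2.19 ± 0.18), beside a macrophage median of 2.90. Colec12 was at 0.32 ± 0.26 (edgeR adjusted p = 0.297), Cd93 at -0.03 ± 0.13 (0.853) and Scarb1 at -0.89 ± 0.47 (0.122), the last turning to 0.13 without the adrenal-bearing library. The Marco calls were lost under limma-voom (adjusted p of 0.062 in young and 0.142 in aged mice), and in aged mice also without tissue replicate 1 or 3 (0.0636 and 0.0563). Without aged RCAM replicate 1 the Marco value was 2.32, under those of Cd163, Mrc1, Msr1 and Stab1 in the full set. The scaling moved plain CPM differences by 0.26 in young and 0.32 in aged mice on the log2 scale.

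Young RCAM libraries were also compared with the capsule macrophages, the other sorted cells of the same site. Cd163, Mrc1, Msr1, Colec12 and Marco were higher in young RCAM libraries and Cd93 was lower, 5 and 1 of the 9, where 8.06% of 15090 genes were higher, 5.39% lower and 13.5% either. The age of the mice behind the capsule macrophages is not in the labels, and the kit of each library is not given, so age, kit and experiment cannot be told apart. The log2 fold changes were 0.73 ± 0.10 for Cd163 (edgeR adjusted p = 0.00203), 0.89 ± 0.12 for Mrc1 (0.00155), 0.64 ± 0.11 for Msr1 (0.0049), 0.87 ± 0.16 for Colec12 (0.00746) and -0.76 ± 0.09 for Cd93 (0.000975). Marco (2.29 ± 0.66, edgeR adjusted p = 0.0445) overlapped between the groups and was lost without capsule macrophage replicates 2, 3 or 4 or young RCAM replicates 3 or 4, the value being 1.48 without young replicate 3. Stab1 (0.31 ± 0.12, edgeR adjusted p = 0.113), Scarf1 (0.26 ± 0.11) and Scarb1 (-0.22 ± 0.10) did not pass. Stab1 passed without capsule macrophage replicate 4 (adjusted p = 0.0309). With all 6 groups in 1 fit, edgeR no longer called Cd163, Msr1 and Marco (adjusted p of 0.0507, 0.131 and 0.0939).

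Ordered by mean CPM, the 6 groups took a different order for nearly every receptor. For Cd163 young RCAM libraries stood first (2166 CPM), apart from capsule macrophages (1354 CPM) and aged RCAM libraries (1306 CPM), which overlapped. Tissue followed, and kidney macrophages came last, apart from all. For Mrc1 and Stab1 the RCAM libraries of both ages overlapped at the top, kidney macrophages (424 and 409 CPM) overlapped aged tissue, and young tissue was last and apart. For Msr1 and Marco aged RCAM libraries had the highest mean and overlapped the young ones, whereas for Scarf1 they stood apart from them (59.4 against 30.2 CPM). Cd93 ran another way, with aged tissue first (105 CPM), then aged RCAM libraries (81.7 CPM) overlapping kidney macrophages (77.1 CPM), and young tissue (47.4 CPM) overlapping young RCAM libraries (37.3 CPM) at the foot. For Scarb1 each group overlapped the next in order, so no neighbours could be told apart.

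Levels of different genes are set side by side here per kilobase of exon. In capsule macrophages the means were 327 CPM per kilobase for Mrc1, 248 for Cd163, 150.0 for Stab1, 24.4 for Colec12, 21.7 for Msr1 and 1.12 for Marco. Kidney macrophages kept Mrc1 (66.5 CPM per kilobase) and Stab1 (39.8) on top, but Scarb1 (18.3), Msr1 (15.3) and Cd93 (11.6) stood above Cd163 (5.43). In aged RCAM libraries Cd163 was at 239 CPM per kilobase, against 397 in young ones, while Mrc1 was at 539 against 586.

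The genes whose pattern was most like each receptor were ranked by Pearson's r of log2 CPM. The libraries form groups, so these values mostly describe group levels and carry no test. Over the 16 sorted libraries and 8543 genes, Cd163 was most like Gfra2, Ednrb and F13a1 (r of 0.999, 0.999 and 0.998), Mrc1 like Nrp1, Cltc and Dse (0.997, 0.995 and 0.994), and Stab1 like Fkbp9, Siglec1 and Sema6d (0.993, 0.992 and 0.991). Marco was most like Msr1 (0.918), another of the 9, before Tram1 (0.898) and Saa3. Over all 22 libraries and 9564 genes, Msr1 was most like Hspa5, Lipa and Entpd1 (each 0.975), Scarf1 like Plin2, Ulk2 and Sbf2 (0.953, 0.945 and 0.945) and Colec12 like Zcchc24, Pdgfc and Nrp2 (0.988, 0.985 and 0.985). Scarb1 was most like Fdxr, Star and Dhcr7 (0.905, 0.871 and 0.849). Fdxr and Star, steroid synthesis genes, were highest in the adrenal-bearing aged library (176 and 1757 CPM). Cd93 had no close match, the highest r being 0.774 with Ece2. Among the 9 genes themselves, Cd163 and Colec12 had r of 0.998 over the sorted libraries and Mrc1 and Stab1 0.987.

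**Figure D5:**
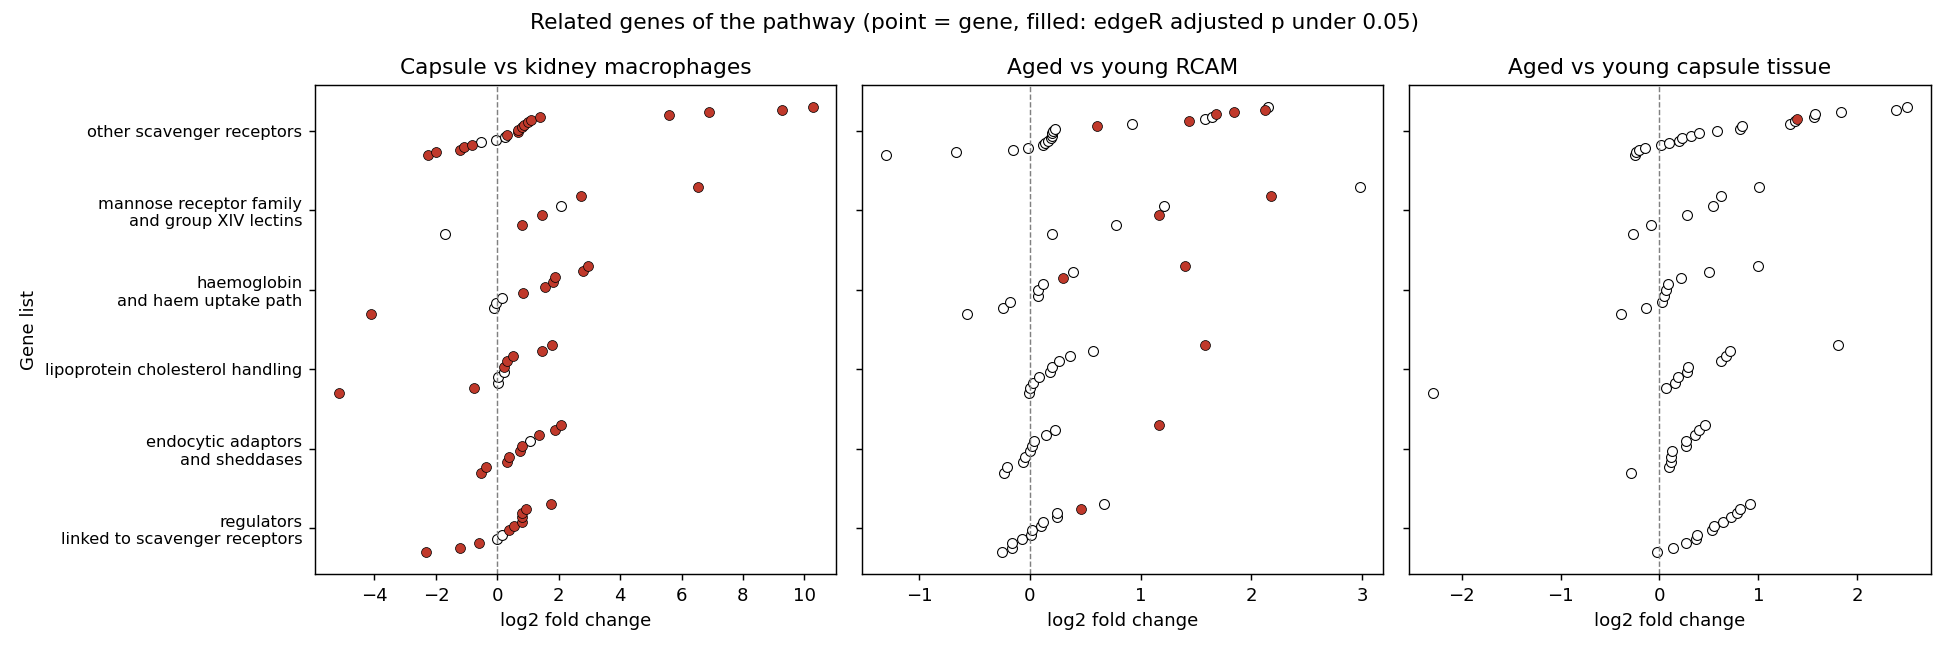
Log2 fold change (horizontal axis) of the genes of 6 related lists in 3 comparisons, each point a gene, filled where the edgeR adjusted p was under 0.05. Haem uptake genes lie mostly to the right in the site comparison (6 of 10 higher, beside 27.3% of all genes). In RCAM aging they lie near 0 (2 of 9 higher, beside 3.43% of all genes).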

How the data were processed

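RNA was sequenced from 22 mouse libraries, with single-end reads of 50 bases, 30 M (1e6) a sample, per the labels. The authors deposited, per the file headers, a whole-number count of reads per gene for 52636 genes and an RPKM value per gene. The deposited RPKM used a gene width equal to the genomic span for 85.6% of genes and was not used for any result. The build is GRCm38, per the submitters' processing notes. No aligner, counter or use of strand is named in those notes, and each is not given in the sources used here. GENCODE M21 gave symbols for 52403 identifiers, and 233 had none.

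CPM is the count over the library total of all genes, not scaled. Each test was the 2-sided quasi-likelihood F test of edgeR 4.0.16 in R 4.3.3 on counts of the groups compared, with TMM scaling, the default low-count filter and Benjamini-Hochberg adjustment over all genes tested, at a threshold of 0.05. All 9 genes passed the filter in every comparison. Scaling moved the log2 differences of plain CPM by 0.21, -0.02, -0.12, 0.26, 0.32 and 0.05 in the order site, RCAM age, tissue age, young RCAM against tissue, aged RCAM against tissue, and young RCAM against capsule macrophages. The fits were tested on simulated counts. Alternatives were DESeq2 1.42.0, limma-voom (limma 3.58.1), RLE scaling, 479 immunoglobulin, mitochondrial and haemoglobin genes left out of the scaling, no low-count filter, the replicate number as a block, all 6 groups in 1 fit, tissue replicate 2 of both ages left out, and each library left out in turn.

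The 9 genes, 6 lists of related genes and the cell type marker lists (226 entries in all, all found) were chosen with earlier results of these data known. Named were all 9 genes, up to 4 genes of smallest p per related list and comparison, and the 3 genes of highest r per receptor, among genes with a mean of at least 10 CPM and on log2(CPM + 1). A result on 1 of the related genes is not reported here.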

Additional observations from a re-analysis of the deposited data

Results flagged for a closer look

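Among the 36 sets of 4 libraries (9 genes in 4 groups), 6 held a library whose gap to the nearest other, as a share of the range, exceeded Dixon's critical value at the 95% level. Chance gives such a gap in about 1 of 20 sets. Aged RCAM replicate 1 was high for Marco (185 CPM) and Msr1 (396 CPM) and low for Stab1 (1870.4 CPM). Aged RCAM replicate 4 was high for Scarf1 (62.1 CPM). Kidney macrophage replicate 4 was low for Stab1 (352 CPM), and capsule macrophage replicate 3 was low for Scarf1 (21.6 CPM).

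For Mrc1 and Colec12 the edgeR interaction test passed between RCAM and tissue libraries, with differences of log2 fold changes of -1.04 and -1.42. Of 14 libraries left out in turn, the Mrc1 call was lost without 7 and the Colec12 call without 10.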

How the results depend on the processing

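Of 990 values of a gene under an alternative, 893 kept their direction and side of the threshold, 27 newly passed, 48 no longer passed and 22 changed sign. In the site comparison the 1 lower receptor, Scarb1, was not called in the fit of all 6 groups (0 lower), and 0 to 1 was lower with a library left out. Of the 2 lower in aged RCAM libraries, 1 was called in the fit of all 6 groups and 1 to 2 with a library left out. In tissue aging, with 0 higher, DESeq2 gave 5, no low-count filter 2, all 6 groups in 1 fit 5, tissue without adrenal-bearing libraries 1, and leaving out a library 0 to 1. The fit of all 6 groups called 1 lower in aged RCAM against tissue (Scarb1, -0.91, adjusted p = 0.0201) and 2 higher, in place of 5, in young RCAM libraries against capsule macrophages. DESeq2 called 4 lower in the test of the 2 age effects, and leaving out a library 0 to 3 (Stab1 passed without aged tissue replicate 2 and Cd163 without aged tissue replicate 3). The causes were not tested. The labels do not say whether replicate numbers pair the samples. Deviations of same-numbered libraries correlated at 0.099, 0.353 and 0.31 in tissue aging, against -0.306 to 0.038 for unlike numbers. The value of 0.353 was that of the adrenal-bearing libraries. In the other comparisons same-numbered libraries correlated at -0.108 to 0.057. Whether tissue libraries of the same number belong together cannot be told. With the replicate block, 0 receptors were lower in the site comparison (Scarb1, -0.29, adjusted p = 0.0638), 0 in aged RCAM libraries (Cd163 -0.77, Colec12 -0.91) and 6 higher in aged tissue. Marco in aged RCAM against tissue was then at 2.34 (adjusted p = 0.15). Over all genes the block changed the calls from 729 to 336 in RCAM aging, from 39 to 2196 in tissue aging and from 2030 to 1059 in young RCAM against capsule macrophages. DESeq2 gave 1550, 1811 and 3234 in these, and 2304 in place of 952 for the 2 age effects. In tissue aging limma-voom gave 25, no filter 1095, all 6 groups 3097, no adrenal-bearing libraries 487, and leaving out a library 0 to 387 (0 without replicate 1 of either age). Leaving out a library gave as few as 451 in RCAM aging (without young replicate 4), 1231 in young RCAM against capsule macrophages (without young replicate 3) and 282 to 1594 for the 2 age effects. Signs changed as follows. In the site comparison Cd93 was 0.00 without capsule macrophage replicate 4 (-0.08 to 0.00 over libraries left out). In RCAM aging Stab1 was -0.00 without young replicate 2 (to 0.11). In tissue aging Cd163 was -0.02 (to 0.73) and Scarb1 -0.13 (to 1.20) without aged replicate 2, and Cd163 -0.25 without both adrenal-bearing libraries. In young RCAM against tissue Cd93 was 0.01 with all 6 groups, and Cd93 was 0.06 (from -0.21) and Scarb1 0.03 (from -0.34) without the adrenal-bearing library. In aged RCAM against tissue Scarb1 was 0.13 (from -1.22) without the adrenal-bearing library, and Cd93 (from -0.09) was 0.09, 0.01 and 0.02 without tissue replicate 1 and RCAM replicates 1 and 3. In the test of the 2 age effects Marco was -0.28 by limma-voom, -0.42 with the replicate block and -1.43 (to 1.23) without aged RCAM replicate 1. Scarb1 was 0.05 and Cd93 -0.19 without adrenal-bearing libraries, Scarb1 0.40 (from -1.06) without aged tissue replicate 2 and Cd93 -0.13 (to 0.26) without young tissue replicate 2. Depth limits Marco in young tissue and kidney macrophages (12 to 32 counts a library) more than the other receptors.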
